A study of Mus musculus with 11 samples.

Results

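Skin of mice given the BET bromodomain inhibitor ABBV-075 (mivebresib) 6 h earlier was compared with skin of vehicle mice, gene by gene across the genome. The comparison took the 4 arrays labelled as 6 h after ABBV-075 and the 3 labelled as vehicle, 7 of the 11 arrays of the series. The remaining 4 arrays, from skin at 24 h, entered only the estimate of the spread and a few values set side by side. ABBV-075 was given at 1 mg/kg, and each array was the skin of 1 mouse. Strain, sex, age, route, body site and genotype were not given in the sources used here, and neither was the time at which vehicle skin was taken, so that dosing and hour of collection cannot be told apart. Of 45101 probe sets on the array, 34958 were annotated to 1 gene. They stood for 18194 genes, each represented by its brightest probe set, and 13710 genes bright enough on at least 3 arrays were tested. Values are log2(intensity + 16) after the arrays were brought to 1 common distribution, a scale on which 4.00 is the floor and on which differences of dim genes are understated. A difference is the 6 h mean minus the vehicle mean on that scale and is followed by its standard error from limma, a linear model over all genes.

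BET proteins, among them Brd2 and Brd3, bind acetylated lysines of histone tails through their bromodomains and bring transcription factors and the elongation kinase P-TEFb to promoters and enhancers. P-TEFb, made of Cdk9 with cyclin T, releases paused RNA polymerase II, and a large share of it is held inactive by Hexim1 on the 7SK RNA. Compounds of this class occupy the bromodomain pocket and displace the proteins from chromatin. Skin is a mixture of epidermis, hair follicles, sebaceous glands, dermal fibroblasts, vessels, immune cells, fat and the thin muscle under it. In such whole tissue, fewer cells of a type and less RNA per cell cannot be told apart.

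All 7 arrays carried the transcripts that define skin. The epidermal keratins Krt14 and Krt10 averaged 11.79 and 13.52 in vehicle and 12.10 and 13.38 at 6 h, and the dermal proteoglycan gene Dcn averaged 13.48 and 13.16. Muscle was sampled as well, with Acta1, the actin of skeletal muscle, at 13.55 and 13.24. As deposited, the arrays were not equally bright. The trimmed mean intensity was 205 to 244 on the vehicle arrays and 118.6, 82.8 and 117 on 6 h replicates 2, 3 and 5, while 6 h replicate 1, at 243.7, was as bright as vehicle. The 5' to 3' signal ratio of beta-actin, which is lower where the RNA is shorter, was 0.484 to 0.593 in vehicle and 0.425, 0.377, 0.284 and 0.0725 in 6 h replicates 1, 2, 3 and 5. Replicate 5 also had the lowest ratio for Gapdh, 0.104 against 0.684 to 0.711 on the other 6 h arrays and 0.698 to 0.911 in vehicle. Replicate 3, low by actin, had the 0.711 and so lay within the vehicle range for Gapdh. As deposited the median gene stood 0.68 below vehicle at 6 h, a log2 difference of -0.68, and 0.0037 above it after normalization. The median SD of a gene was 0.21 among vehicle arrays and 0.33 among 6 h arrays. The part of brightness and RNA length in the results was not tested beyond the values printed here.

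No gene passed limma's test over all 13710 genes at an adjusted p of 0.05 (0% called in either direction), and the unequal-variance test called none either. At an unadjusted p under 0.05 there were 1099 genes (8.02%) higher and 1103 (8.05%) lower at 6 h, and 40 genes, 16 higher and 24 lower, had an adjusted p under 0.10. The smallest adjusted p was 0.0638, shared by 9 genes. As a description beside the test, genes were counted whose 6 h arrays all lay outside the range of the vehicle arrays: 1340 genes (9.77%) lay wholly above vehicle and 1203 (8.77%) wholly below, 18.5% in all. By the group mean alone 50.4% of genes were above vehicle and 49.6% below. Differences beyond 1 log2 unit were more frequent among the lower genes, 324 against 63 of the higher. The higher genes were found most often at middle levels, 14% of genes with a mean of 8 to 10 against 5.64% of genes under 6, and the lower genes were spread more evenly, from 6.74% to 10% across levels. The number called depends on the processing. The intensities as deposited gave 2 higher and 857 lower genes, and limma's array weights gave 1057 higher and 1441 lower. Without 24 h replicate 4, which enters only through the spread, 5 higher and 18 lower genes were called.

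**Figure D1:**
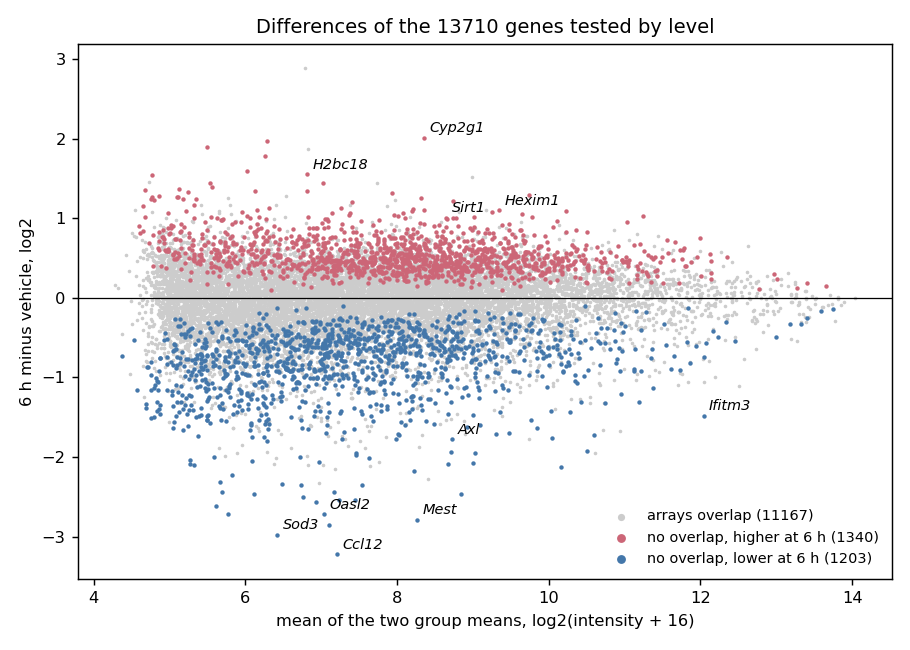
Difference between 6 h and vehicle means (vertical axis, log2) against the average of both group means (horizontal axis, log2 of intensity + 16) for the 13710 genes tested. Red points are the 1340 genes with every 6 h array above every vehicle array and blue points the 1203 with every 6 h array below; the blue points reach further from 0 than the red.

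Other probe sets of the same genes gave a reading that the choice of the brightest set did not use. Among genes wholly above vehicle, 1125 of 1557 other probe sets (72.3%) were also higher at 6 h, where 49.5% of all such probe sets were. Among genes wholly below vehicle, 549 of 687 (79.9%) were lower, against 50.5% of all. These probe sets came from the same RNA, and 38% of those for the lower genes and 21.1% of those for the higher genes lay wholly outside vehicle in the same direction, against 9.03% and 9.39% of all.

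Hexim1, which encodes the inhibitor that holds P-TEFb inactive, was the higher gene of smallest p. Its level was 8.93, 8.70 and 8.77 in vehicle replicates 1, 3 and 4 and 10.14, 9.98, 9.94 and 9.54 in 6 h replicates 1, 2, 3 and 5. The 6 h arrays lay together about 1 unit above vehicle, the lowest being replicate 5. The difference was 1.10 ± 0.17, or 2.14-fold (adjusted p = 0.0638), and the other Hexim1 probe set gave 1.39 with no overlap. The replication-dependent histone gene H2bc18 stood at 6.30, 5.97 and 5.83 in vehicle and at 7.62, 7.39, 7.70 and 7.66 at 6 h. Its groups were separated by more than a unit, with a difference of 1.55 ± 0.25 (2.94-fold, adjusted p = 0.0667).

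Several other genes wholly above vehicle encode proteins of DNA repair, chromatin and RNA processing. Sirt1, a NAD-dependent deacetylase of histones and transcription factors, was at 7.95, 8.29 and 8.20 in vehicle and at 8.92, 9.28, 9.01 and 9.39 at 6 h, a difference of 1.01 ± 0.18. Msh3, of the mismatch repair complex, stood 0.96 ± 0.17 above vehicle and Rif1, which protects DNA ends and times replication, 0.81 ± 0.15. The adjusted p was 0.0878 for Msh3 and 0.0915 for Rif1. The other Msh3 probe sets, both dimmer, gave 0.65 and -0.16 with overlap. Of the other 3 Rif1 probe sets, 2 were wholly above vehicle (0.90 and 0.58) and 1 overlapped (0.21). Rnpc3, a protein of the minor spliceosome, differed by 0.99 ± 0.19 and Tent4b, a poly(A) polymerase that marks RNA for decay, by 0.80 ± 0.16. Zzz3, a histone-reading subunit of an acetyltransferase complex, differed by 0.83 ± 0.15, but its other probe set, equally bright, gave 0.24 with overlap. Cry1, a repressor of the circadian clock, read 6.42, 6.82 and 6.68 in vehicle and 7.41, 7.69, 7.51 and 7.55 at 6 h, a difference of 0.90 ± 0.17 (adjusted p = 0.0915). The remaining genes of the 15 of smallest p were Slc7a6os (0.88), Cfap57 (1.02), Aadac (0.94), Strbp (0.91), Zfp672 (0.65) and Bpifb9b (1.90).

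**Figure D2:**
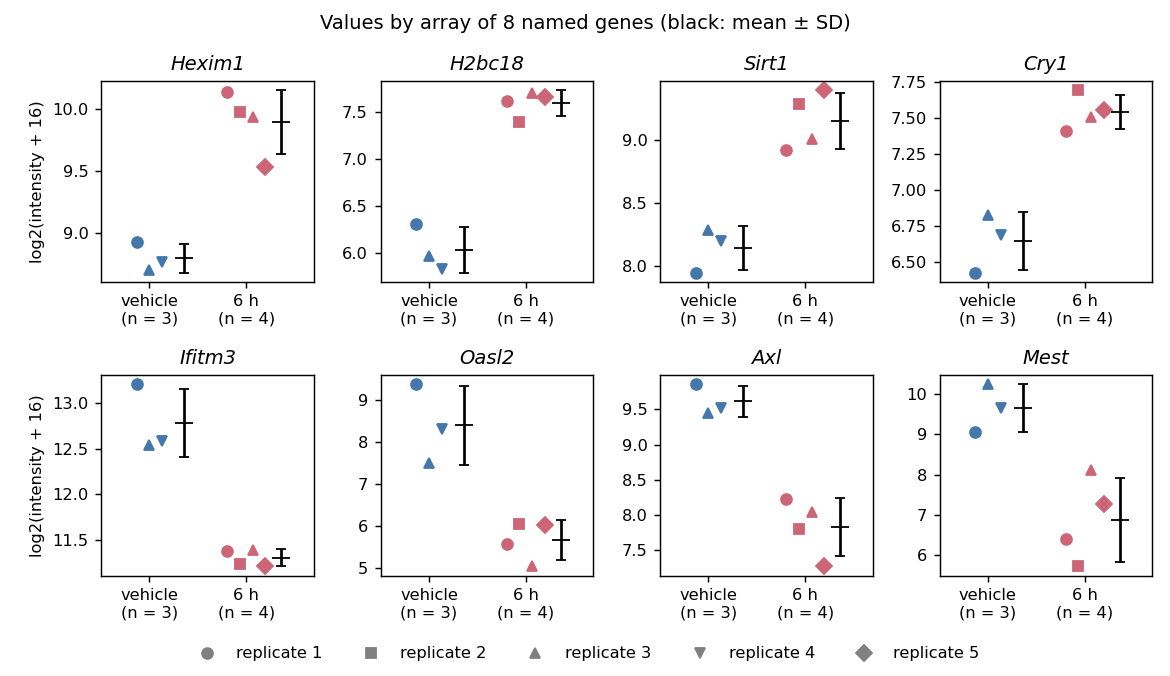
Level (vertical axis, log2 of intensity + 16) of 8 genes in each vehicle array (blue) and each 6 h array (red), with the marker shape giving the replicate number and black bars the mean ± SD. In all 8 genes the groups do not overlap; the upper row lies higher at 6 h (Hexim1 9.90 against 8.80) and the lower row lower (Ifitm3 11.30 against 12.78).

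By size the order was different. Among genes wholly above vehicle with a mean of at least 6 at 6 h, the largest differences were those of Cyp2g1 (2.01 ± 0.88), Jakmip1 (1.97 ± 0.45), Bpifb9b (1.90 ± 0.35), Igll1 (1.78 ± 0.43) and H2bc18. Cyp2g1, a cytochrome P450 best known from olfactory tissue, read 7.36, 7.25 and 7.43 in vehicle and 8.19, 9.77, 10.04 and 9.42 at 6 h. In Cyp2g1, Jakmip1, Igll1 and Bpifb9b alike, the lowest of the 6 h arrays was replicate 1, the array as bright as vehicle. Jakmip1, Igll1 and Bpifb9b lay close to the floor in vehicle, at 5.30, 5.37 and 4.54, and the other Jakmip1 probe set stood at -0.09 with overlap.

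P-TEFb and its partners were followed as a list of 27 genes, of which 23 were tested. The means of 17 were above vehicle and of 6 below, with a median difference of 0.23 against 0.0037 over all genes, and 5 (21.7%, against 9.77% of all genes) lay wholly above vehicle. The kinase subunit Cdk9 differed by -0.02 ± 0.21, a sign that turned with several settings. Its partner cyclin T1 (Ccnt1) was at 8.65, 8.99 and 9.02 in vehicle and at 9.20, 9.38, 9.29 and 9.44 at 6 h, 0.44 ± 0.20 and wholly above. A dimmer Ccnt1 probe set, at 6.16 in vehicle, gave -0.16 with overlap. Ccnt2 differed by 0.51 ± 0.30 with overlap. Of the 7SK particle, the capping enzyme Mepce stood 0.43 ± 0.19 above vehicle without overlap and the RNA-binding protein Larp7 0.46 ± 0.22 with overlap. The super elongation complex gave Ell2 at 0.55 ± 0.24 and Aff1 at 0.39 ± 0.23, both wholly above, and Aff4 at 0.33 ± 0.17. Mllt1, a reader subunit of the same complex, went the other way, 5.99, 5.76 and 6.13 in vehicle and 5.43, 4.74, 4.04 and 4.00 at 6 h, a difference of -1.41 ± 0.41 that ended at the floor on replicate 5. The 4 subunits of the pausing factor NELF lay between -0.30 and 0.05, and Supt5, its partner, at 0.22 ± 0.26. Of the drug's targets, Brd2 differed by 0.25 ± 0.29 and Brd3 by 0.23 ± 0.20, both with overlap. After Hexim1, the smallest adjusted p of the list was 0.181, for Mllt1. The list's median was 0.09 on the values as deposited, taken relative to the median gene, 0.07 after median scaling and 0.11 without vehicle replicate 1. The list mean was -0.12, -0.04 and 0.155 in vehicle replicates 1, 3 and 4. In 6 h replicates 1, 2, 3 and 5 it was 0.30, 0.24, 0.05 and 0.08, with replicates 3 and 5 below vehicle replicate 4.

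Other chromatin readers and writers stood on both sides of vehicle. Of 29 histone deacetylases and bromodomain proteins, 16 were above vehicle and 13 below (median 0.05), with 5 (17.2%, against 9.77% of all genes) wholly above and 3 (10.3%, against 8.77%) wholly below, the latter share near that of all genes. Hdac2, a class I deacetylase, stood at 9.94, 10.05 and 10.22 in vehicle and at 10.68, 10.57, 10.65 and 10.80 at 6 h, 0.61 ± 0.16. The acetyltransferase Ep300 differed by 0.61 ± 0.27 without overlap. Hdac7 lay wholly below vehicle at -0.53 ± 0.22, and the bromodomain protein Zmynd8 at -0.44 ± 0.23. Zmynd8, Zcchc24, Cd180, Serpini1 and Hexim1 have been used as markers of BET inhibition. All 5 Zmynd8 probe sets were lower at 6 h, at -0.44, -0.70, -0.60, -0.65 and -0.71, and 2 of them did not overlap. Zcchc24 differed by -0.46 ± 0.29 with overlap, because 6 h replicate 3 (9.20) lay among the vehicle values, and its other probe set by -1.08 with none. Serpini1 was below the filter on dim probe sets. Of 28 tested Mediator and RNA polymerase II subunits 17 were above vehicle (median 0.09), among them the largest subunit Polr2a, 0.44 ± 0.19 and wholly above.

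Histone genes were above vehicle in the mean of every tested member. The list held 20 genes, 11 with a probe set of their own, and all 11 had a 6 h mean above vehicle, with a median of 0.49. The arrays of 5 members (45.5%, against 9.77% of all genes) lay wholly above vehicle. Beside H2bc18 these were the core histone gene H2aw (0.82 ± 0.19), the linker histone H1f2 (0.95 ± 0.25), H3c4 (0.82 ± 0.23) and H2aj (0.36 ± 0.16). H2aw read 8.85, 8.89 and 8.69 in vehicle and 10.11, 9.56, 9.42 and 9.41 at 6 h, and its other probe set gave 1.20 without overlap. H1f2 was at 10.19, 11.01 and 10.47 in vehicle and at 11.31, 11.44, 11.30 and 11.97 at 6 h. Another H1f2 probe set, nearly as bright, gave 0.66 with overlap, and a dim set, at 5.26 in vehicle, gave -0.15 with overlap. The variant histone gene H2az1 differed by 0.67 ± 0.22 with overlap, and the 2 smallest differences, 0.08 and 0.02, were -0.03 and -0.05 on the values as deposited relative to the median gene. The mean of the 11 genes stood 0.55, 0.63, 0.50 and 0.66 above the vehicle mean in the 6 h arrays, whose spread was narrow and lay outside the vehicle values of 0.09, 0.06 and -0.15. Without 6 h replicate 5, the array of lowest actin and Gapdh ratios, 10 of 11 were above vehicle and 5 wholly above, against 12.8% of all genes in that setting. Histone genes share long stretches of sequence, so that reads of related members on a probe set cannot be fully separated. Genes of DNA replication had 17 of 21 members above vehicle with a median of 0.22. With each array left out that median ranged from 0.11 to 0.45. Genes of mitosis had 14 of 21 members below vehicle with a median of -0.06, but vehicle replicate 1 stood apart (list mean 0.96 against -0.52 and -0.44). Without it 14 of 21 were above vehicle, with a median of 0.38 and 42.9% wholly above (13.3% of all genes in that setting), and without vehicle replicate 4 19 of 21 were below. The helicase subunit Mcm4 stood 0.84 ± 0.22 above vehicle without overlap, its other probe set 0.40 with overlap.

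Among genes wholly below vehicle, Ifitm3, an interferon-induced membrane protein that blocks virus entry, had the smallest p of all genes. It read 13.21, 12.54 and 12.59 in vehicle and 11.37, 11.23, 11.39 and 11.21 at 6 h. The 6 h arrays lay close together and more than a unit below the lowest vehicle array, with a difference of -1.48 ± 0.20 (2.79-fold, adjusted p = 0.0638). Axl, a receptor tyrosine kinase of macrophages and fibroblasts that binds dying cells through Gas6, read 9.86, 9.45 and 9.52 in vehicle and 8.22, 7.80, 8.04 and 7.27 at 6 h, a difference of -1.78 ± 0.29 (adjusted p = 0.0796). A dimmer Axl probe set, at 5.63 in vehicle, gave 0.12 with overlap. Lgals9, a galectin induced by interferon, differed by -1.95 ± 0.35, and Ptgis, the prostacyclin synthase of vessels and stroma, by -2.05 ± 0.36. Daxx, a histone H3.3 chaperone and corepressor, read 7.33, 7.33 and 7.43 in vehicle and 6.39, 6.61, 6.47 and 6.29 at 6 h, a small but tight difference of -0.92 ± 0.17 (adjusted p = 0.0879). Zfp423, a zinc finger protein of preadipocytes, differed by -1.80 ± 0.33. Cbr2, a carbonyl reductase abundant in dermal macrophages, differed by -2.13 ± 0.39, from 12.08, 10.97 and 10.62 to 8.77, 8.68, 10.02 and 8.92. The other genes of the 15 of smallest p were Podxl2 (-2.09), Mtarc1 (-1.44), Oasl2 (-2.72), Smim5 (-1.37), Slfn1 (-2.62), Steap3 (-1.48), Krt20 (-1.47) and Ifitm6 (-2.47). Podxl2 and Slfn1 reached the floor of 4.00 on 2 of the 4 arrays at 6 h, so their differences are limited by the scale.

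Among genes wholly below vehicle with a vehicle mean of at least 6, the largest differences were those of Ccl12 (-3.23 ± 0.91), Sod3 (-2.98 ± 0.60), Ear3 (-2.86 ± 0.63), Mest (-2.79 ± 0.69) and, at -2.72 each, Fpr2 and Oasl2. Ccl12, a monocyte-attracting chemokine, read 9.68, 8.39 and 8.41 in vehicle and 5.10, 4.67, 7.38 and 5.25 at 6 h, with replicate 3 nearest to vehicle. Sod3, the secreted superoxide dismutase of the matrix, read 8.12, 8.05 and 7.58 in vehicle and 5.70, 4.96, 4.48 and 4.60 at 6 h. Mest, an imprinted gene that enlarges fat cells, read 9.05, 10.26 and 9.67 in vehicle and 6.39, 5.70, 8.11 and 7.28 at 6 h. All 3 spread more between the 6 h arrays than Ifitm3 did, and their adjusted p values were 0.173, 0.110 and 0.147. The Ear3 probe set is of a kind that can also bind transcripts of related genes.

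Interferon-stimulated genes form the antiviral programme switched on by factors that include Stat2 and Irf9 at interferon-stimulated response elements. Of 40 listed genes 35 were tested, and the mean of each was below vehicle at 6 h, with a median difference of -1.38 against 0.0037 over all genes. In 21 of 35 (60%, against 8.77% of all genes) every 6 h array lay below every vehicle array, and 26 had an unadjusted p under 0.05 (8.05% of all genes did in this direction), though none passed over all genes. Their promoters are shown because the motif these factors bind stood in many of them. The motif was searched as GAAANNGAA on both strands, overlapping matches counted, in the 250 bases before and 50 after each start given by RefSeq (build GRCm38.p6). It was found for 15 of the 27 members with a promoter in the table (55.6%), against 8.69% of the 11009 genes tested with one. Of the 6 members of smallest p that had a promoter, Ifitm3, Ifitm2 and Ifit1 held it and Oasl2, Cmpk2 and Xaf1 did not have these letters in the window. The promoters of the former are printed 5' to 3' along the gene, with the motif in capitals: Ifitm3 lies at chr7:141010695-141010994 on the minus strand, Ifitm2 at chr7:140955912-140956211 on the minus strand and Ifit1 at chr19:34640639-34640938 on the plus strand.
Ifitm3: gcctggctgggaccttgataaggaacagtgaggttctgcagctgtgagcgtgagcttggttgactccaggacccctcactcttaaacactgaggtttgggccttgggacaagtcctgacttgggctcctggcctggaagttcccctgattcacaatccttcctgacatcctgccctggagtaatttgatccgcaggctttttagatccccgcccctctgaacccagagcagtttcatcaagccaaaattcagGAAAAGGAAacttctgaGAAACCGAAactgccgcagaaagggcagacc
Ifitm2: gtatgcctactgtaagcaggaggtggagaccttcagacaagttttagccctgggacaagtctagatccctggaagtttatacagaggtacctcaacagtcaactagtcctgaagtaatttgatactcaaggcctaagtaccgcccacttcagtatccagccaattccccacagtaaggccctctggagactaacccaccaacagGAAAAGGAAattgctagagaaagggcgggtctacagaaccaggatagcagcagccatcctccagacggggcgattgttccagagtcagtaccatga
Ifit1: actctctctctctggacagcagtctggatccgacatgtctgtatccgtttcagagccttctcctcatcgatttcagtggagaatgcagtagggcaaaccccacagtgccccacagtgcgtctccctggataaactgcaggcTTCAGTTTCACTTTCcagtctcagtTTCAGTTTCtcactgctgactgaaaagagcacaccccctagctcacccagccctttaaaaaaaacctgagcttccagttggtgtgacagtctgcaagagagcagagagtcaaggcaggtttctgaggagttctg
Both Ifitm3 matches lie after the start, the Ifitm2 match ends 37 bases before it, and Ifit1 has 3 matches on the reverse strand, 2 of them overlapping, the nearest ending 75 bases before it. A match is a string of letters and no measured site. Among all genes wholly below vehicle the share was 10.2%, and outside the interferon list 9.54%, close to the 8.69% of all; among those wholly above it was 8.48%.

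The oligoadenylate synthetase-like gene Oasl2, an antiviral sensor relative, read 9.37, 7.49 and 8.31 in vehicle and 5.59, 6.04, 5.05 and 6.02 at 6 h, the largest difference of the list at -2.72 ± 0.43 (6.57-fold, adjusted p = 0.066). Its relatives Oas1a (-1.78), Oasl1 (-0.76) and Oas2 (-0.68) were less far below vehicle, Oas2 with overlap. The Ifit genes, whose products bind uncapped viral RNA, were far below: Ifit1 read 8.62, 7.59 and 8.98 in vehicle and 5.62, 5.51, 5.59 and 7.08 at 6 h (-2.44 ± 0.60), Ifit3 differed by -2.06 ± 0.63 and Ifit2 by -1.81 ± 0.70. In Ifit1 the groups did not overlap, and in Ifit2 and Ifit3 replicate 5 lay above the lowest vehicle array. Among the membrane restriction factors Ifitm2 differed by -1.31 ± 0.25 (adjusted p = 0.0952), Ifitm1 by -0.69 ± 0.39 and Bst2, the tether of budding virus, by -1.38 ± 0.69. Of the cytoplasmic RNA sensors, Dhx58 differed by -2.0 ± 0.40, Ddx58, which encodes RIG-I, by -1.16 ± 0.34, and Ifih1, which encodes MDA5, by -0.86 ± 0.40 with overlap. Mx1, a GTPase that traps viral capsids, differed by -1.55 ± 0.38, and Usp18, which removes Isg15 and dampens the receptor, by -1.43 ± 0.31. The nucleic acid sensor Zbp1 differed by -1.97 ± 0.62. The interferon-inducible GTPases Irgm1 (-1.21), Igtp (-1.41), Gbp3 (-1.45), Gbp2 (-1.01) and Iigp1 (-1.07) were lower in the mean, and Irgm1 and Igtp without overlap. Of the transcription factors themselves, Irf9 differed by -0.69 ± 0.22 without overlap, and Stat2 by -0.43 ± 0.32 and Irf7 by -1.16 ± 0.48 with overlap. Isg15 and Ifi44 were not analysed here, as no probe set was annotated to them alone, and Mx2 and Oas3 were below the filter.

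**Figure D3:**
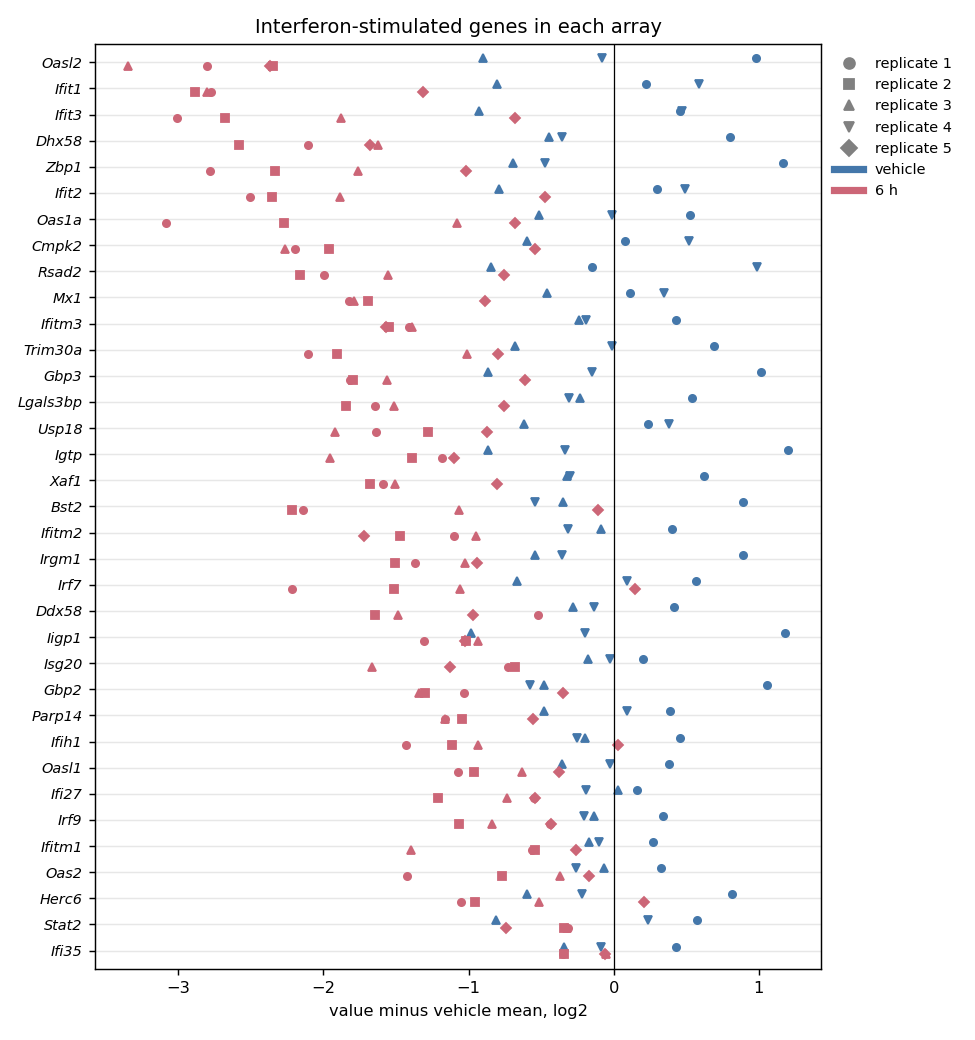
Value in each array minus the vehicle mean (horizontal axis, log2) of the 35 tested interferon-stimulated genes (vertical axis), with vehicle in blue, 6 h in red and the marker shape giving the replicate number. The 6 h points lie mostly left of the vehicle points, and the diamonds of 6 h replicate 5 are the rightmost red points in 26 of 35 genes.

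The arrays did not share this equally. The mean of the 35 genes, set to 0 at the vehicle mean, was 0.54, -0.50 and -0.04 in vehicle replicates 1, 3 and 4 and -1.58, -1.55, -1.35 and -0.74 in 6 h replicates 1, 2, 3 and 5. All 6 h arrays were below all vehicle arrays, with replicate 5 nearest to them and the highest of the 6 h arrays in 26 of 35 members. Replicate 5 is also the array of lowest actin and Gapdh ratios, and without it 31 of 35 members lay wholly below vehicle, where 14% of all genes did. On replicate 1 alone, the 6 h array as bright as vehicle, 34 of 35 were below every vehicle array, against 33.3% of all genes. Vehicle replicate 1 was the highest vehicle array, and without it the median difference was -0.95 and 21 members lay wholly below vehicle, against 11.9% of all genes. As deposited, relative to the median gene, the median was -1.36.

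Neighbouring immune programmes were lower to a smaller extent. Of 11 tested genes of MHC class I presentation 9 were below vehicle (median -0.44, and -0.28 without vehicle replicate 1) and 3 (27.3%, against 8.77% of all genes) wholly so, the peptide-loading gene Tapbp (-0.67 ± 0.19), the immunoproteasome subunit Psmb10 (-1.33 ± 0.41) and the transporter Tap2 (-0.63 ± 0.26). Class II genes were below vehicle in 7 of 8 members (median -0.52), each with overlap. All 11 complement genes were below vehicle (median -0.75) and 4 (36.4%, against 8.77% of all genes) wholly, among them C1qc (-1.20 ± 0.59) and C1ra (-1.12 ± 0.57). By limma no complement gene had an unadjusted p under 0.05, and the list means of the 6 h and vehicle arrays overlapped. Without vehicle replicate 1, 9 of 11 were below vehicle, with a median of -0.66 and 4 (36.4%, against 11.9% of all genes) wholly so. Cytokines and chemokines had 16 of 22 members below vehicle (median -0.37) with none wholly below; Ccl12 was not among the listed genes. Ccl2, a relative of Ccl12, read 7.35, 7.60 and 8.07 in vehicle and 5.82, 5.45, 7.77 and 5.21 at 6 h, with replicate 3 among the vehicle values. Cxcl1, which attracts neutrophils, lay wholly above vehicle (0.73 ± 0.27), while its other probe set stood at -0.41 with overlap. NF-kB genes had 8 of 13 members below vehicle (median -0.28). Bcl3 (-1.28 ± 0.34), Birc3 (-0.52), Nfkbib (-0.84) and Rela (-0.35) lay wholly below (30.8%, against 8.77% of all genes). Nfkbiz, an inducible cofactor of the pathway, lay wholly above, at 8.08, 8.74 and 8.72 in vehicle and 10.03, 9.24, 8.85 and 9.46 at 6 h (0.88 ± 0.32). The dimmer Nfkbiz probe sets gave 0.13 and 0.67 with overlap.

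Macrophage markers were below vehicle in all 19 tested members, with a median of -1.15, and 6 (31.6%, against 8.77% of all genes) lay wholly below. Fcgr1, the high-affinity IgG receptor, read 9.61, 8.16 and 8.37 in vehicle and 5.76, 5.28, 6.78 and 6.88 at 6 h, a difference of -2.54 ± 0.63 (adjusted p = 0.147). Ms4a7, Cd68 and Fcer1g differed by -2.08 ± 0.80, -1.53 ± 0.60 and -1.72 ± 0.73, each wholly below vehicle, and Cd180, a Toll-like receptor relative among the reported markers, by -0.85 ± 0.26. Markers that define the lineage differed less: Csf1r, its growth factor receptor, by -0.33 ± 0.37, Adgre1, which encodes F4/80, by -0.60 ± 0.56 and Cd163 by -0.34 ± 0.74, all with overlap. The mean of the 19 genes was 0.78, -0.23 and -0.56 in vehicle and -1.85, -1.57, -0.63 and -0.45 at 6 h, so that 6 h replicate 5 overlapped with vehicle replicate 4. Both groups spread widely here. Without vehicle replicate 1 the median was -0.63, with 18 of 19 members below vehicle and 6 (31.6%, against 11.9% of all genes) wholly so. The part of macrophage content in the interferon genes, many of which macrophages express, was not tested.

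Other immune cells had smaller median differences than macrophages. Mast cell genes were below vehicle in 6 of 8 tested members (median -0.45). The proteases Mcpt4 (-1.19 ± 0.56) and Cma1 (-0.89 ± 0.57) lay wholly below (25%, against 8.77% of all genes). The mast cell list mean was 0.19, 0.04 and -0.23 in vehicle and -0.35, -0.60, -0.49 and -0.43 at 6 h, without overlap. Dendritic and Langerhans cell genes stood at a median of -0.05, T cell genes at -0.17 and the 4 tested B cell genes at 0.10. Within them Cd209a of dermal dendritic cells (-1.44 ± 0.58) and the immunoglobulin gene Ighm (-1.48 ± 0.46) lay wholly below vehicle, and the T cell receptor chain Cd3g (0.45 ± 0.18) wholly above. The other Ighm probe sets went both ways. The nearly as bright set gave -1.54 with overlap, and a dim set, at 4.90 in vehicle, lay wholly above at 0.55. Neutrophil genes had 5 of 7 members above vehicle (median 0.34, and 0.18 without 6 h replicate 2) and none without overlap. S100a8, an alarmin of neutrophils and stressed epidermis, read 7.57, 6.99 and 6.47 in vehicle and 5.90, 8.75, 9.05 and 10.12 at 6 h, high on all 6 h arrays but replicate 1.

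The connective tissue of the dermis was lower across its lists. All 22 genes of collagens and their processing were below vehicle (median -0.62), 8 (36.4%, against 8.77% of all genes) wholly so. Col6a2, a chain of the microfibrillar collagen VI, read 11.57, 11.13 and 11.19 in vehicle and 10.63, 10.53, 10.71 and 10.08 at 6 h, a difference of -0.81 ± 0.23 (adjusted p = 0.173). The basement membrane chain Col4a2 differed by -0.97 ± 0.29, Col15a1 by -0.95 ± 0.34 and the crosslinking enzyme Loxl1 by -0.98 ± 0.42, each without overlap. The abundant fibrillar chains Col1a1 (-0.22 ± 0.35), Col1a2 (-0.11 ± 0.19) and Col3a1 (-0.09 ± 0.22) differed less, and relative to the median gene as deposited Col1a2 and Col3a1 were above vehicle, at 0.45 and 0.51. Without vehicle replicate 1 the median of the list was -0.41, with the same counts below and wholly below vehicle. Elastic fibre and proteoglycan genes were below vehicle in 25 of 26 members (median -0.45), with 9 (34.6%, against 8.77%) wholly below. Mfap2, a microfibril protein, read 8.71, 8.21 and 8.59 in vehicle and 6.89, 5.77, 7.22 and 4.00 at 6 h (-2.54 ± 0.69), the last value at the floor. The exception was the collagen-binding proteoglycan gene Fmod, at 6.51, 6.58 and 6.57 in vehicle and 7.57, 7.63, 7.27 and 7.70 at 6 h (0.99 ± 0.25). Matrix proteases and inhibitors were below vehicle in 13 of 14 members (median -0.51), among them Adamts5 (-1.17 ± 0.51) without overlap. The other Adamts5 probe sets, at -0.83 and -0.29, overlapped.

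Fibroblast identity genes were below vehicle in 16 of 17 members, with a median of -0.54 and 5 (29.4%, against 8.77% of all genes) wholly below. Clec3b, tetranectin of the dermal matrix, read 9.72, 9.87 and 10.42 in vehicle and 7.39, 8.21, 9.16 and 7.44 at 6 h (-1.95 ± 0.73), and Mfap5 differed by -1.53 ± 0.53. The receptor Pdgfra, a defining marker, differed by -1.04 ± 0.48 without overlap and Pdgfrb by -0.07 ± 0.29. The mean of the 17 genes was narrow in vehicle, -0.05, 0.01 and 0.04, and -0.85, -0.83, -0.45 and -0.65 at 6 h.

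Blood endothelial genes were below vehicle in 18 of 19 members (median -0.53), 8 (42.1%, against 8.77% of all genes) wholly so. Hspa12b, an atypical heat shock protein of endothelium, read 5.91, 6.07 and 5.52 in vehicle and 4.00, 4.89, 4.00 and 4.22 at 6 h, where 2 arrays were at the floor (-1.56 ± 0.23, adjusted p = 0.0638). The adrenomedullin coreceptor gene Ramp2, brighter, differed by -1.30 ± 0.33 and the angiopoietin pathway receptor Tie1 by -1.02 ± 0.33. The transcription factor Sox18 differed by -1.46 ± 0.47 and Pecam1 by -1.58 ± 0.71, both without overlap, with Tie1 and Pecam1 at the floor on replicate 5. Other defining genes of the lineage lay near 0, Cdh5 at -0.26 ± 0.33, Kdr at -0.11 ± 0.28 and Cldn5 at 0.23 ± 0.35. The list mean was -0.54, -0.70, -0.66 and -0.76 in the 6 h arrays, a narrow range below the vehicle values of 0.40, -0.12 and -0.28. Without vehicle replicate 1 the median difference was -0.33. Of the 6 tested lymphatic genes, Lyve1 differed by -1.77 ± 0.72 with overlap and Pdpn by -0.79 ± 0.44 without, while Mmrn1, Reln and Prox1 lay wholly above vehicle. Smooth muscle and pericyte genes stood at a median of 0.04 and Schwann cell genes at -0.40, which was -0.0049 without vehicle replicate 1.

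Adipocyte genes were below vehicle in all 16 tested members, with a median of -1.02, and 8 (50%, against 8.77% of all genes) lay wholly below. Plin4, a coat protein of lipid droplets, read 10.47, 10.33 and 10.39 in vehicle and 9.26, 9.22, 9.55 and 9.63 at 6 h, a tight difference of -0.98 ± 0.20 (adjusted p = 0.115). The nuclear receptor Pparg, which directs fat cell formation, read 8.43, 8.57 and 7.98 in vehicle and 7.01, 6.75, 7.68 and 7.61 at 6 h (-1.06 ± 0.43). The lipases Lipe (-1.19 ± 0.43) and Pnpla2 (-0.75 ± 0.42), the droplet protein Cidec (-1.59 ± 0.63), the glycerol channel Aqp7 (-1.32 ± 0.43) and Pck1 (-1.77 ± 0.71) were also wholly below vehicle. The most abundant markers differed less and overlapped, Fabp4 by -0.30 ± 0.32 and Adipoq by -0.77 ± 0.58. Lep, which encodes leptin, was uneven, at 8.86, 9.55 and 8.33 in vehicle and 6.63, 4.70, 9.21 and 8.79 at 6 h. The list mean was 0.01, 0.20 and -0.21 in vehicle and -1.30, -1.45, -0.64 and -0.75 at 6 h, lower on replicates 1 and 2 than on 3 and 5. Enzymes of triglyceride synthesis shared with other cells, Dgat2 (-0.67 ± 0.29) and Agpat2 (-1.04 ± 0.46), lay wholly below vehicle within a fatty acid list whose median was 0.00096.

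**Figure D4:**
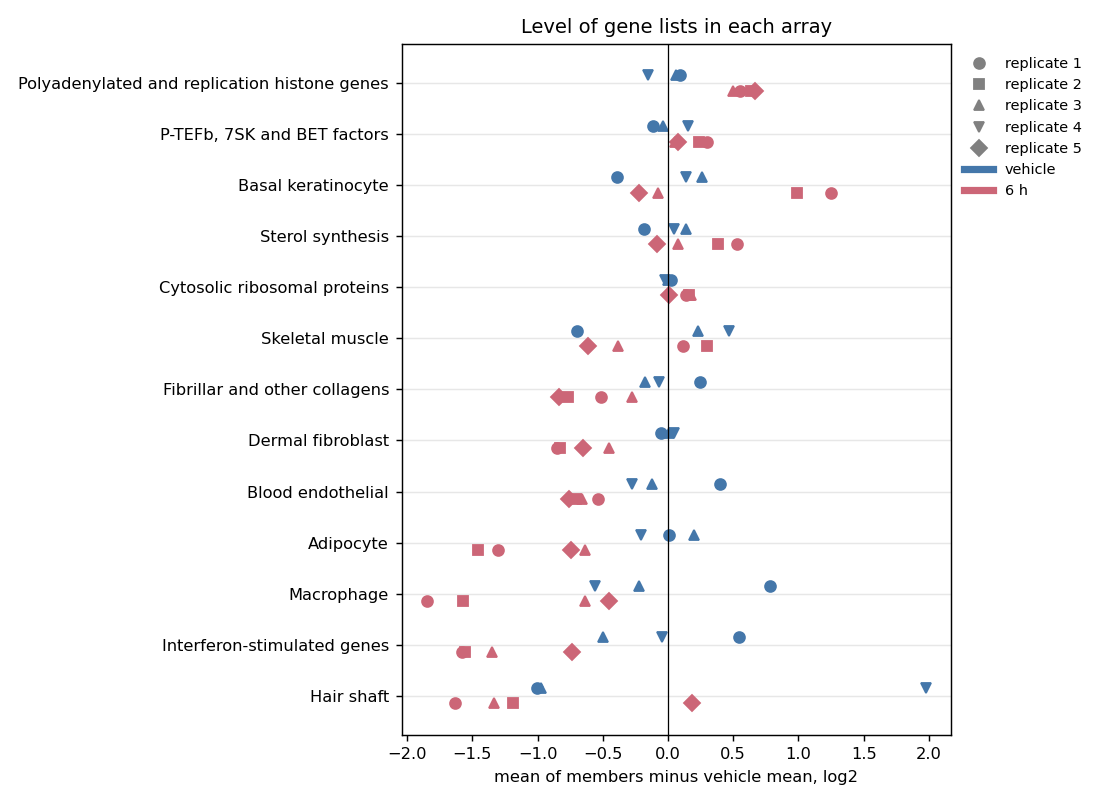
Mean of the tested members of 13 gene lists in each array, set to 0 at the vehicle mean (horizontal axis, log2), with vehicle in blue, 6 h in red and marker shape giving the replicate number. The histone list lies above vehicle on every 6 h array (0.50 to 0.66), the collagen, fibroblast, endothelial, adipocyte and interferon lists below, and the basal keratinocyte list is split between the 6 h arrays (1.25 and 0.99 against -0.07 and -0.22).

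The stromal counts were also taken without the 6 h arrays of low actin ratio, replicate 5 and then replicates 3 and 5. By Gapdh, replicate 3 (0.711) lay within the vehicle range of 0.698 to 0.911. Without replicate 5, wholly below vehicle were 13 of 16 adipocyte genes, 12 of 19 endothelial, 11 of 19 macrophage, 9 of 17 fibroblast and 9 of 22 collagen genes, against 14% of all genes. On replicates 1 and 2 alone the counts were 14, 13, 19, 14 and 17, against 24% of all genes. The actin ratios of replicates 1 and 2 were also below those of every vehicle array.

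Epidermal genes did not follow the dermis. Basal keratinocyte genes were above vehicle in all 10 tested members (median 0.48, and 0.16 without 6 h replicate 1), but none without overlap. Their mean was 1.25 and 0.99 on 6 h replicates 1 and 2 and -0.07 and -0.22 on replicates 3 and 5, against -0.39, 0.26 and 0.14 in vehicle. Trp63, the master regulator of stratified epithelium, differed by 0.61 ± 0.36 and the basal keratin Krt14 by 0.30 ± 0.36. On the array level the basal genes stood highest where the macrophage genes stood lowest, on replicates 1 and 2. Suprabasal (median 0.12), cornified envelope (0.24), lipid barrier (0.30) and desmosome genes (0.31) were above vehicle in 5 of 7, 11 of 17, 9 of 12 and 9 of 11 members. Wholly above vehicle were 14.3%, 5.88%, 16.7% and 9.09% of them, against 9.77% of all genes. The desmosome share was near that of all genes and the cornified envelope share under it. Of the cornified envelope genes 11.8% lay wholly below, against 8.77% of all genes. The mean of the cornified envelope genes was 0.23, -0.17, -0.37 and -0.12 in 6 h replicates 1, 2, 3 and 5, below the vehicle mean on all but replicate 1. Without vehicle replicate 1 the suprabasal, lipid barrier and desmosome medians were 0.05, 0.12 and 0.18. The filament-aggregating protein gene Flg was wholly above vehicle, at 9.60, 9.91 and 9.96 and then 10.82, 10.45, 10.03 and 10.29 (0.58 ± 0.25), as were the very long chain fatty acid elongase Elovl4 (0.51 ± 0.17), the lipid transporter Abca12 (1.13 ± 0.39) and the desmosomal cadherin Dsc3 (0.71 ± 0.23). A dimmer Dsc3 probe set gave 0.0145 with overlap. The small proline-rich protein Sprr2d (-1.42 ± 0.45) and the protease Klk5 (-0.65 ± 0.26) lay wholly below.

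Hair shaft genes had 16 of 18 members below vehicle and a median of -0.94, which rested on 1 vehicle array. The list mean was 1.98 in vehicle replicate 4 against -1.01 and -0.97 in replicates 1 and 3, and without replicate 4 the median was -0.01, with 9 of 18 members on either side. Krt34, a keratin of the hair cortex, read 5.33, 5.25 and 10.05 in vehicle and 4.49, 4.43, 4.00 and 7.22 at 6 h. Follicle stem cell and cycle genes stood at a median of 0.17 and sebaceous gland genes at 0.27, but both rested on 6 h replicate 1, without which they were -0.08 and 0.0028. Among them Foxc1, a factor of resting follicle stem cells, lay wholly above vehicle (0.86 ± 0.30). Melanocyte genes stood at 0.18. Skeletal muscle genes stood at a median of -0.05 in 22 members, with no member wholly above or wholly below vehicle. Vehicle replicate 1 was the lowest vehicle array there (list mean -0.70), and without it 21 of 22 were below vehicle, with a median of -0.34 and 5 (22.7%, against 11.9% of all genes) wholly below.

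Genes of growth and of the early response were mostly near 0. Myc, the gene most often followed in BET inhibition, read 7.62, 7.87 and 7.96 in vehicle and 8.32, 8.30, 7.89 and 7.41 at 6 h, a difference of 0.16 ± 0.30 that was -0.03 after median scaling. The Myc network had 9 of 12 members above vehicle (median 0.16, and 0.04 without 6 h replicate 1), with Mga, which competes with Myc for Max, wholly above (0.66 ± 0.19), and Max itself at -0.92 ± 0.35. Ribosome biogenesis had 17 of 26 members above vehicle (median 0.10, and 0.036 without 6 h replicate 1 or 0.22 without replicate 5) and 6 (23.1%, against 9.77% of all genes) wholly above, including the nucleolar protein gene Npm1, at 11.94, 11.88 and 11.91 and then 12.44, 12.31, 12.28 and 12.46 (0.46 ± 0.14). Cytosolic ribosomal proteins stood at a median of 0.04 in 20 members and oxidative phosphorylation at -0.01 in 27, with no member of the latter wholly above or wholly below vehicle. Immediate early genes had 13 of 24 members above vehicle (median 0.02, and -0.10 without vehicle replicate 1) and 5 (20.8%, against 9.77% of all genes) wholly above, among them Egr1 (1.06 ± 0.46) and Egr3 (0.61 ± 0.19), while Klf2, a factor of quiescent endothelium, was wholly below (-0.63 ± 0.23). In Egr1, replicate 1 stood apart at 11.11 against 9.77, 9.82 and 9.98 on the other 6 h arrays, and the lowest of these barely cleared the highest vehicle array.

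Stress and metabolic lists gave a few members wholly above or wholly below vehicle. Heat shock proteins and chaperones had 11 of 17 members above vehicle (median 0.23, and 0.09 without vehicle replicate 1), and 6 (35.3%, against 9.77% of all genes) lay wholly above. Hsp90aa1, the inducible Hsp90, read 11.48, 11.29 and 11.11 in vehicle and 11.95, 11.90, 11.83 and 11.74 at 6 h (0.56 ± 0.16), and Hspa1b, an inducible Hsp70, differed by 0.75 ± 0.24, Hsph1 by 0.49 ± 0.16 and Dnajb1, its cochaperone, by 0.40 ± 0.16. A dimmer Hsph1 probe set gave 0.11 with overlap. Sterol synthesis had 13 of 19 members above vehicle (median 0.26). Dhcr7 (0.71 ± 0.22) and Hmgcs1 (0.62 ± 0.19) lay wholly above (10.5%, near the 9.77% of all genes). Equally bright Hmgcs1 probe sets gave 0.27 and 0.32 with overlap. Of the dimmer sets, the brighter gave 0.10 with overlap and the other lay wholly above at 0.98. The mean of the sterol list was 0.53, 0.38, 0.07 and -0.08 in 6 h replicates 1, 2, 3 and 5. Targets of p53 stood at a median of 0.10, with Trp53inp1 (0.66 ± 0.20) wholly above vehicle and the kinase gene Plk2 (-0.55 ± 0.24) wholly below. A dimmer Trp53inp1 probe set gave -0.17 with overlap. The integrated and endoplasmic reticulum stress list stood at -0.05, the Bcl2 family at -0.14, D cyclins and Cdk inhibitors at 0.04, glucocorticoid-responsive genes at 0.0085, Wnt genes at 0.05 and clock genes at 0.03, where the members ran from Npas2 (-0.47) to Cry1 on either side of vehicle. Except in the Bcl2 family, each of these small medians crossed or came close to 0 when 1 array was left out, the p53 list at 0.011 without vehicle replicate 1, the stress list at 0.04 without the same array. In the Bcl2 family the killer gene Bcl2l11, which encodes Bim, read 7.0, 6.99 and 7.01 in vehicle and 7.64, 7.73, 7.87 and 8.07 at 6 h (0.83 ± 0.21). Another Bcl2l11 probe set, equally bright in vehicle, lay wholly above (0.52), and a dimmer set gave -0.0042 with overlap. Mcl1, which opposes Bim, was wholly below vehicle by a small margin (-0.17 ± 0.14). The Cdk4 and Cdk6 inhibitor gene Cdkn2c differed by -0.92 ± 0.45 without overlap, from 10.33, 10.41 and 10.17 to 9.26, 9.09, 9.54 and 9.67.

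**Figure D5:**
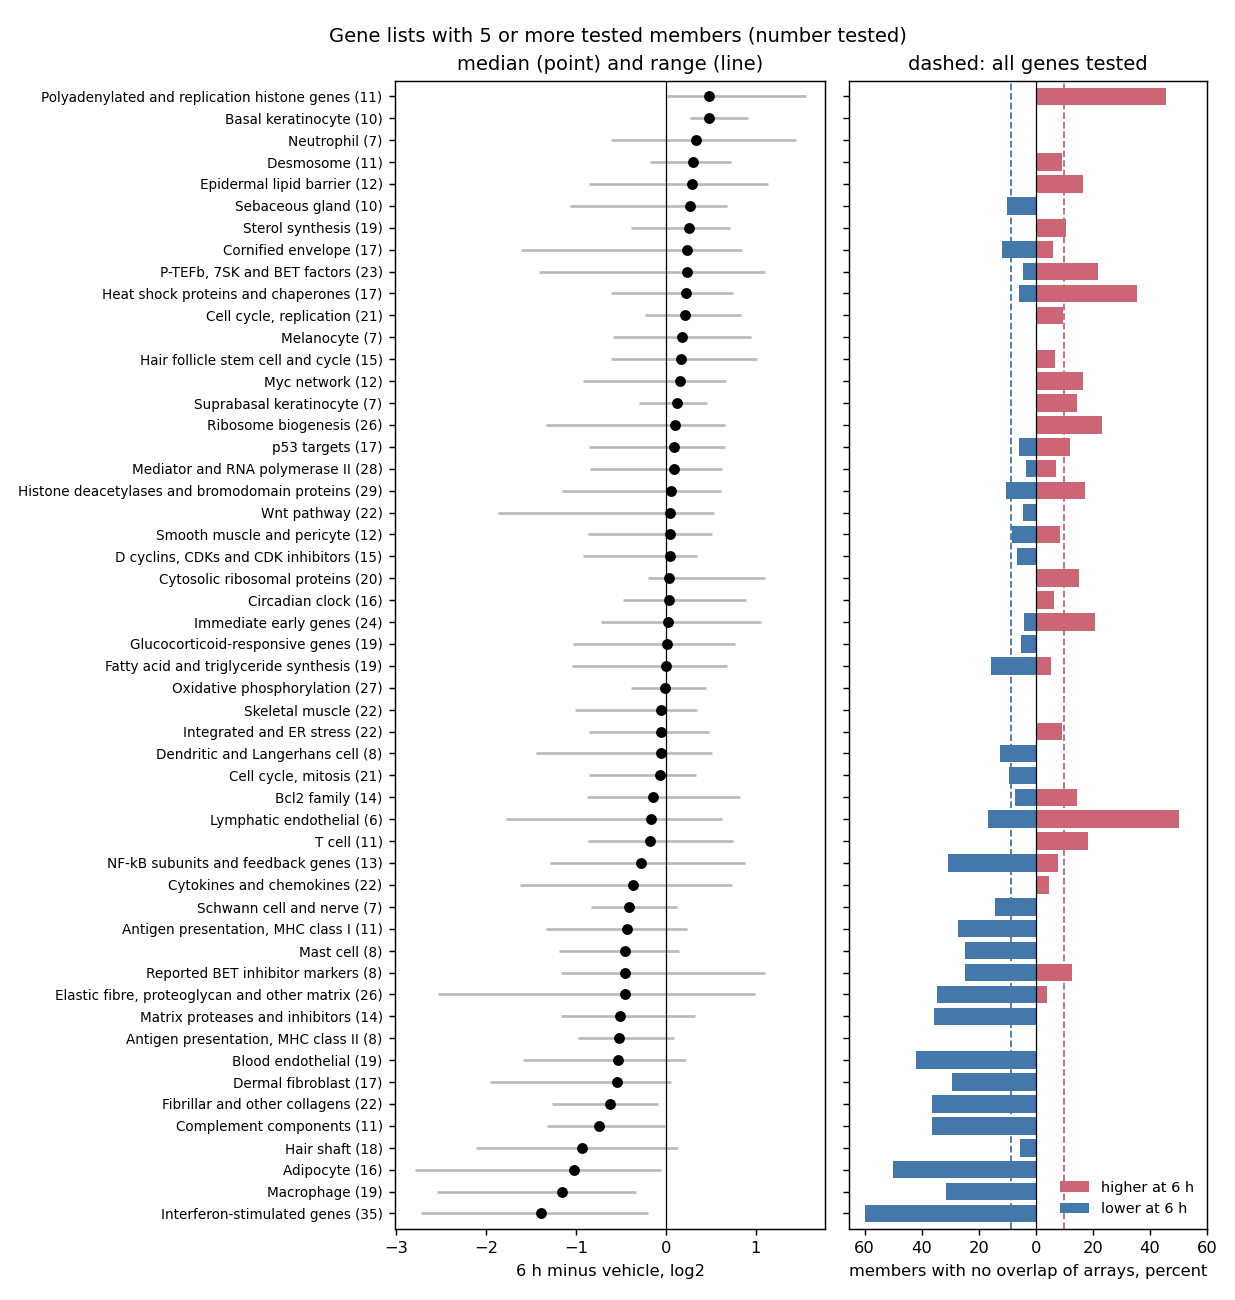
Left, median (point) and range (line) of the differences between 6 h and vehicle (horizontal axis, log2) of each gene list with at least 5 tested members, with the number tested in brackets. Right, percent of members with no overlap of arrays, higher (red) or lower (blue), against dashed lines for all genes tested (9.77% and 8.77%); interferon-stimulated genes have the lowest median (-1.38, 60% wholly below) and histone genes the highest (0.49, 45.5% wholly above), while the 6 lymphatic genes have the largest share wholly above (50%).

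The genes wholly above and wholly below vehicle also differed in features the comparison did not use. Genes above vehicle spanned a median of 28.6 kb and those below 18.6 kb, against 22.8 kb for all genes tested. Their promoters held a median of 23 and 16 CpG dinucleotides in 300 bases, against 19.2 for all, and 62% and 59% G and C. The 6 h arrays did not contribute equally to these sets. Replicate 5 lay farthest from vehicle in 1072 of the 2543 genes, replicates 1, 2 and 3 in 545, 542 and 384.

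Skin taken at 24 h was compared with the same 3 vehicle arrays, so the values at both times share their controls. Hexim1 stood at 1.10 at 6 h and 0.01 at 24 h, and H2bc18 at 1.55 and 0.03. Between the times themselves Hexim1 differed by -1.09 ± 0.16 and H2bc18 by -1.53 ± 0.23, 24 h minus 6 h, each with a limma adjusted p of 0.0672. The interferon list had a median of -1.38 at 6 h and -1.03 at 24 h, the collagen list -0.62 and -0.72, the adipocyte list -1.02 and -0.73, and the histone list 0.49 and 0.30. At 24 h the interferon, collagen and adipocyte list means, set to 0 at the vehicle mean, were lowest on replicate 4. In 24 h replicates 1, 2, 3 and 4 the interferon mean was -0.92, -0.488, -0.94 and -2.004, with replicate 2 within the vehicle range. The collagen mean was -0.37, -0.396, -0.55 and -1.37. The adipocyte mean was 0.09, -0.895, -0.39 and -2.02, with replicate 1 within the vehicle range. The histone mean was 0.202, 0.44, 0.13 and 0.35.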

How the data were processed

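Total RNA from mouse skin (200 ng per array, prepared with Qiazol and RNeasy and labelled with the Affymetrix 3' IVT Plus kit, per the labels' protocols) was measured on 11 arrays, 1 per mouse. The table the authors deposited holds a linear intensity per probe set and array; no source used here gives the software or scaling behind it. The deposited intensities were quantile-normalized, values below 0 were set to 0, and log2 of the value plus 16 was taken. The platform annotation gave 34958 probe sets 1 gene symbol, 932 several and 9211 none, and 34754 were found in the RefSeq gene table. The brightest probe set stood for a gene, and genes above the 40th percentile on at least 3 arrays were kept. A mean per group was fitted with limma 3.58.1 in R 4.3.3 over 11 arrays, since the 3 groups share 1 estimate of the spread, and p-values were adjusted over all genes by Benjamini-Hochberg at 0.05. The script was tested on simulated data.

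The members and the 55 gene lists (31 pathways, 24 cell types) were chosen with earlier results of these data known. Genes were named by rule: the 15 of smallest p in each direction among genes not overlapping and with a mean of at least 6 in the higher group, the 5 of largest difference, up to 4 of smallest p per list, and a fixed set of BET-related and control genes; symbols of unnamed clones were passed over. Other list members, given to show a role, were chosen after their values were seen. Counts of list members without particular arrays were added after seeing the data. P-values measure the spread between mice of 1 study.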

Additional observations from a re-analysis of the deposited data

Results flagged for a closer look

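In 9 of the genes named, 1 of the 4 arrays at 6 h stood apart from the others by the size of its gap to the nearest of them. In all 240 groups were tested, and chance gives such a gap in about 1 of 20, so that the number found is no more than chance gives. Replicate 5, the array of lowest actin ratio, was the separate array in 6 of them. It read high for Ifit1 (7.08 against 5.51 to 5.62), Mx1 (6.17 against 5.22 to 5.36), Slfn1 (5.11 against 4.00 to 4.10), the endothelial cadherin gene Cdh5 (8.66 against 7.69 to 7.84) and the hair keratin gene Krt34 (7.22 against 4.00 to 4.49), and low for Stat2 (5.79 against 6.19 to 6.22). Replicate 1 stood apart as high for Egr1 (11.11 against 9.77 to 9.98) and as low for Mcl1 (10.91 against 11.09 to 11.12), and replicate 3 as low for the histone gene H3c4 (5.25 against 5.78 to 5.87). The Gapdh 5' to 3' ratio of replicate 5 was 0.104, against 0.684 to 0.711 on the other 6 h arrays. Flg stood on opposite sides of vehicle at the 2 times, 0.58 at 6 h and -0.74 at 24 h, and every 6 h array lay above and every 24 h array below vehicle. The values at 24 h and 6 h differed by -1.32, and this opposition was picked from the arrays' positions without a test of its own.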

How the results depend on the processing

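The number of genes called was 0 in both directions under median scaling, cyclic loess, pseudocounts of 1 and 64, the 60th percentile filter, the removal of cross-hybridising probe sets, a variance trend, the unequal-variance test and the actin ratio as a covariate. Elsewhere the counts of higher and lower calls were 2 and 857 as deposited, 9 and 9 with no filter, 2 and 5 for the mean of probe sets, 1057 and 1441 with array weights, 0 and 1 on the 7 arrays alone, and 16 and 24 at an adjusted p of 0.10. Leaving out each replicate gave 0 to 5 higher and 0 to 18 lower calls, the most without 24 h replicate 4. With the replicate number as a block, 0 higher and 1 lower gene were called. Same-numbered arrays did not deviate together (r = -0.12 and -0.07 for numbers 1 and 3 across genes), so the numbers were not taken as pairs. The counts of genes wholly above and below vehicle were 717 above after median scaling, 29 and 2655 as deposited, and 3167 and 3285 without the 3 arrays of actin ratio under 0.3, an alternative chosen after seeing the data. With each replicate left out, the genes wholly below numbered 1355 to 1915. Differences as deposited were taken relative to the median gene.

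The median of the P-TEFb list was 0.073 after median scaling and 0.085 as deposited. The histone median was 0.70 as deposited, 0.84 and 0.35 with pseudocounts of 1 and 64, 0.64 with array weights, 0.31 with the actin covariate and 0.45 to 0.68 with each replicate left out. The interferon median was -2.02 with the actin covariate, and with the block the fibroblast median was -0.72 and the macrophage median -1.93. Some genes turned sign, and not all of them lay near 0. Jakmip1 (1.97), S100a8 (1.45) and Cxcl1 (0.73) started far from 0 with the main settings, as did Pecam1. Median scaling gave Col1a2 0.47, Col3a1 0.53, Fabp4 0.27 and Myc -0.028, cyclic loess Col1a2 0.11 and Col3a1 0.13, and the values as deposited Col1a2 0.45, Col3a1 0.51 and Fabp4 0.26. The mean of probe sets gave Cxcl1 -0.15, H2aj -0.047 and Mcl1 0.089, and Jakmip1 was -0.086 without cross-hybridising probe sets. Array weights gave Cdk9 0.18 and Stat2 0.093. The actin covariate gave Cdk9 0.34, Col1a1 0.44, Pecam1 0.026 and S100a8 -0.0060. The block gave Cdk9 0.24, Col1a1 0.0046 and Prox1 -0.050. Without the arrays of low actin ratio Cdk9 was 0.20, Col1a1 0.20 and Pdgfrb 0.0044. With each replicate left out Cdk9 ranged from -0.10 to 0.13, Col1a1 from -0.43 to 0.074, Cd163 from -0.65 to 0.061 and Pdgfrb from -0.12 to 0.027. The cause of these changes was not tested. The number of arrays, 3 against 4, limits the precision.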
